A study of Mus musculus with 41 samples.

Results

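The 9 genes described here, Bst2, Ifit1, Ifit3, Irf7, Isg15, Oasl2, Ifi44, Usp18 and Irf9, are interferon-stimulated genes of the mouse. They were taken by symbol from a deposited RNA-seq table of 34591 entries, all 9 were found there, and they were followed across the 41 libraries of the study. The libraries came from 20 K27M and 9 WT-Tag brainstem tumors and from neurospheres, spheres of neural stem and progenitor cells grown in suspension, with 3 K27M and 3 WT-Tag cultures from hindbrain and 3 of each from forebrain. K27M stands for histone H3.3 with lysine 27 replaced by methionine, the change found in diffuse midline gliomas, and WT-Tag for the tagged wild-type histone expressed from the same locus.

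K27M tumors carried Nestin-creERT2, H3f3a LSL-K27M-Tag/+, LSL-PDGFRαV544ins and Trp53flox/flox, and WT-Tag tumors differed from them by H3f3a LSL-WT-Tag/+ in place of the mutant allele. All tumors therefore shared the Cre driver, which is active in Nestin-expressing neural progenitors, the Cre-dependent PDGFRα mutant and the floxed Trp53 alleles. The cultures came from e15.5 embryos with Nestin-cre and either H3f3a LSL-K27M-Tag/+ or H3f3a LSL-WT-Tag/+, grown under conditions for neural precursors, and no PDGFRα or Trp53 allele is given for them. Tumor tissue also holds host cells, and the labels give no age for the tumor-bearing mice. Each culture carries an experiment id from 1 to 3. Cultures were female except the WT-Tag cultures of experiment 3, which were male.

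Type I interferons bind the IFNAR receptor, whose kinases activate transcription factors that join IRF9 in a complex and enter the nucleus. There it binds interferon-stimulated response elements near the start sites of genes whose products restrict viruses. In brain, microglia and infiltrating leukocytes respond strongly, and neural stem cells express a subset of these genes without added interferon.

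The promoters of Bst2, Ifit3 and Isg15 are shown because Bst2 parted from the other members in the cultures while all 3 varied together in the tumors. RefSeq sequence of the 250 bases before each start site is given 5′ to 3′ on the gene's strand, in build GRCm38.p6, whereas the deposited values were made on mm9. Capitals mark matches to GAAANNGAAA on either strand, a spaced pair of GAAA repeats of the kind found in interferon-stimulated response elements. The windows are chr8:71537473-71537722 on the minus strand for Bst2, chr19:34583279-34583528 on the plus strand for Ifit3 and chr4:156200819-156201068 on the minus strand for Isg15.
Bst2: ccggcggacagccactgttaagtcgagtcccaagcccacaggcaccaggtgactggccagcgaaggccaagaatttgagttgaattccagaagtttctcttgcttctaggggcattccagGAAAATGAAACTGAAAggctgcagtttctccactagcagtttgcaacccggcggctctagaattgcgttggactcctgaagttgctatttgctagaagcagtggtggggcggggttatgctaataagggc
Ifit3: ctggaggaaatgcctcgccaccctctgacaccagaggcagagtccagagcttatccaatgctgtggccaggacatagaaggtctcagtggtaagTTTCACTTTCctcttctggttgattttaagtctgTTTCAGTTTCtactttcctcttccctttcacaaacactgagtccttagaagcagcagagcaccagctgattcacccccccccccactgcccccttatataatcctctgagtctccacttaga
Isg15: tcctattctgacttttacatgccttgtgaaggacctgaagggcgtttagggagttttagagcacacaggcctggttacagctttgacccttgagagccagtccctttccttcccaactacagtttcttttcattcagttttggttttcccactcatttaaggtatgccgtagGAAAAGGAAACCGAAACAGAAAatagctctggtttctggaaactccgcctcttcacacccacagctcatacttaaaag

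Bst2 held 2 overlapping matches, which span positions 130 to 115 before the start site. Ifit3 held 2 separate matches on the opposite strand, at 156 to 147 and 122 to 113, and Isg15 held 3 overlapping matches spanning positions 78 to 57. Ifit1 also held 2 matches, at 104 to 95 and 85 to 76. In the window that was searched, 250 bases before to 50 after the start, 4 of the 8 members with a RefSeq entry had a match, and 1131 of 32851 promoters of all genes (3.44%) had one. These letters were not in the windows of Irf7, Oasl2, Ifi44 or Irf9. A match is a description of sequence and was not tested as a binding site.

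Facts of the whole data set were as follows. The values are FPKM, fragments per kilobase of transcript corrected for library size, and are comparable between genes per length. Read counts are not given in the table, so depth was estimated from the step between low values of 3557 genes, relative to the median library. It had a median of 0.964 in K27M tumors (0.454 to 1.54), against 1.22 in WT-Tag tumors (0.874 to 1.31), and ran from 0.801 to 0.976 in K27M against 0.955 to 1.22 in WT-Tag hindbrain cultures, and from 0.318 to 1.06 in K27M against 0.489 to 1.19 in WT-Tag forebrain cultures. The sex labels of WT-Tag tumors 8 and 9 went against their sex-linked transcripts, so their place among the WT-Tag tumors rests on the labels alone. The precursor markers Nes, Sox2 and Olig2 were at 43.6 FPKM or more in all hindbrain cultures. Microglial genes were present in all tumors, with Csf1r at 12.3 FPKM or more.

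All 9 members were expressed in every tumor and varied widely from tumor to tumor in both genotypes. Irf9, the DNA-binding subunit of the complex that interferon activates, ran from 5.89 to 23.3 FPKM in K27M tumors (median 11.3) and from 2.31 to 21 in WT-Tag tumors (median 15.3). Irf7, the transcription factor that amplifies type I interferon production, ran from 2.71 to 133 FPKM in K27M tumors (median 29.9) and from 1.39 to 120 in WT-Tag tumors (median 51.7). For both factors the ranges of the genotypes overlapped almost entirely, and the lowest tumor was a WT-Tag tumor.

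Among the effectors, Bst2, also called tetherin, is a membrane protein that holds budding virions at the cell surface. It ran from 7.18 to 274 FPKM in K27M tumors (median 104) and from 5.77 to 233 in WT-Tag tumors (median 114). Ifit1 and Ifit3 encode interferon-induced proteins of the same family. Ifit3 had the highest median of the members in tumors, with 15.48 to 352 FPKM in K27M tumors (median 157) and 6.59 to 375 in WT-Tag tumors (median 236). Ifit1 ran from 7.05 to 183 FPKM in K27M tumors (median 70.3) and from 2.82 to 145 in WT-Tag tumors (median 57.3). Oasl2, a protein of the oligoadenylate synthetase family, ran from 1.71 to 82.2 FPKM in K27M tumors (median 26.9) and from 1.5 to 92.7 in WT-Tag tumors (median 44.9). Ifi44, a gene induced by type I interferon, ran from 2.26 to 64.7 FPKM in K27M tumors (median 16.3) and from 0.575 to 65.6 in WT-Tag tumors (median 26.8). For each of these effectors the ranges of the genotypes overlapped, and the lowest tumor was again a WT-Tag tumor.

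Isg15, a ubiquitin-like protein that is attached to other proteins, had the widest span of FPKM in K27M tumors. It ran from 8.18 to 542 FPKM there (median 78.1) and from 3.90 to 410 in WT-Tag tumors (median 87.3). Usp18, the protease that removes ISG15 and also dampens signaling at the interferon receptor, ran from 6.82 to 186 FPKM in K27M tumors (median 65.7) and from 2.17 to 168 in WT-Tag tumors (median 118). The conjugated protein and its protease had medians of the same order as Bst2, and Irf9 had the lowest tumor median of the members.

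**Figure D1:**
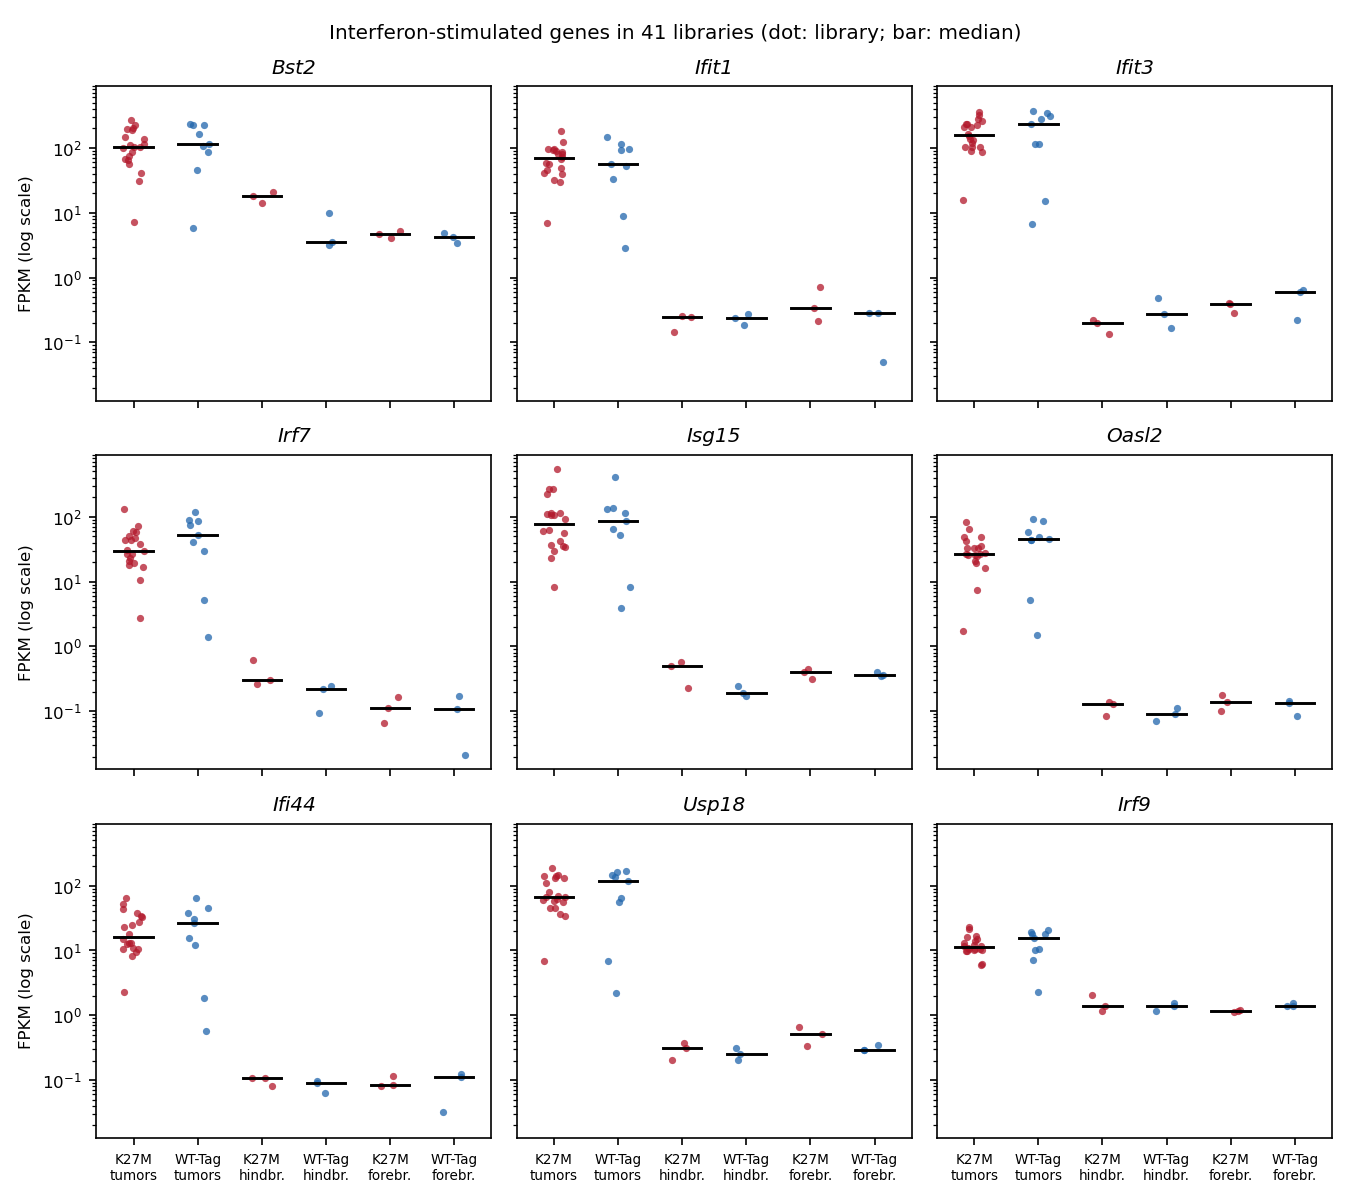
FPKM (log scale) of each of the 9 genes in K27M (red) and WT-Tag (blue) tumors and hindbrain and forebrain neurospheres, with 1 dot per library and a bar at the group median. Tumors lie above all cultures for 8 genes, and Bst2 in the 3 K27M hindbrain cultures lies at 13.9 to 20.6 FPKM, above the other 9 cultures, as Irf7 does at its lower level of 0.267 to 0.613 FPKM.

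The comparison of tumor genotypes asks whether interferon-stimulated genes depend on the mutant histone in brainstem tumors. No member passed the test, 0 of 9, where 0.0846% of all 15360 genes tested did (13 genes, and 1104 at an unadjusted p under 0.05). Bst2 averaged 116 ± 70.1 FPKM in the 20 K27M tumors (SD) and 134 ± 82.8 FPKM in the 9 WT-Tag tumors (SD). Its difference in log2(FPKM + 1) was −0.04 ± 0.50 (SE), with a limma adjusted p of 0.99 and a 95% interval from −1.06 to 0.98. Among tumors that varied this much, the values are compatible with any difference in that interval. It is not a limit of detection, since p was adjusted over all 15360 genes and larger differences could also fail the test.

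The other members gave log2 differences between −0.22 for Oasl2 and 0.49 for Ifit1, with SE of 0.50 and 0.47 and limma adjusted p of 0.937 and 0.838. Irf9 had the narrowest interval, from −0.46 to 0.50 around a difference of 0.02. Of the 9 differences 6 were positive, with a median of 0.20, against a median of −0.01 and 46.6% positive over all genes tested. The signs depended on a few tumors. Without WT-Tag tumors 9 and 28 and K27M tumor 17, an exclusion chosen after seeing the data, 6 members changed sign, among them Ifit3 at −0.46 and Usp18 at −0.53, and 0 members passed.

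**Figure D2:**
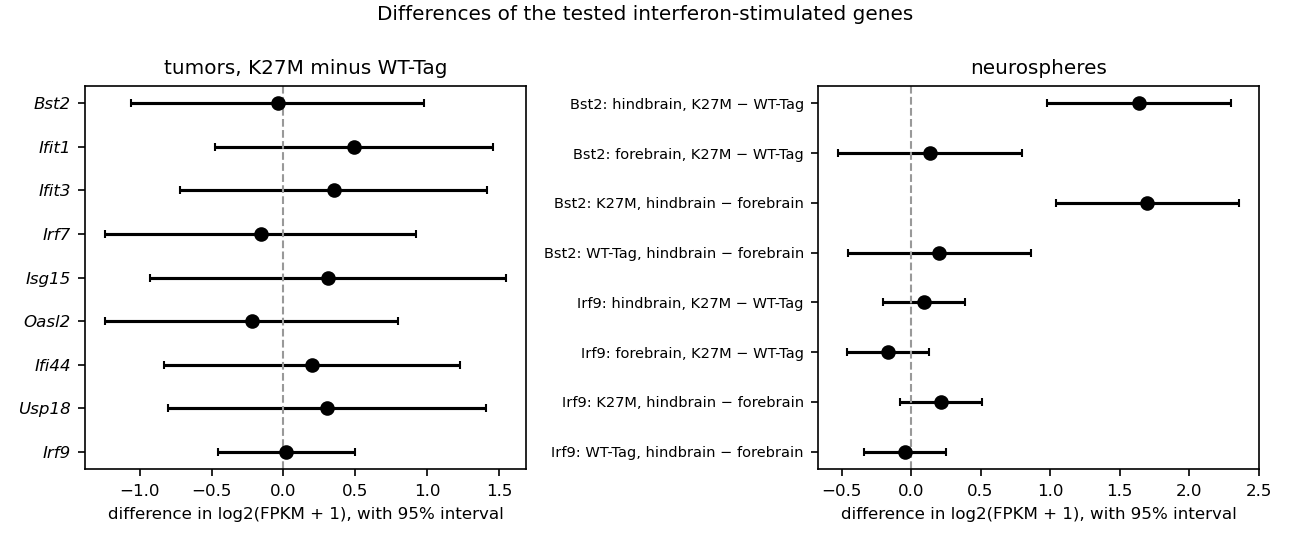
Differences in log2(FPKM + 1) with 95% intervals from limma, for the 9 genes in tumors (left) and for Bst2 and Irf9, the 2 genes above the filter, in neurospheres (right). All tumor intervals include 0, whereas the Bst2 intervals for hindbrain K27M minus WT-Tag (0.98 to 2.30) and K27M hindbrain minus forebrain (1.04 to 2.36) do not.

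The tumors with low values were the same ones for nearly every member. K27M tumor 17 and WT-Tag tumor 28 were among the lowest 3 of 29 for all 9 members, and WT-Tag tumor 9 for 7 of them and among the lowest 5 for all 9. Ifit3 stood at 15.48 FPKM in K27M tumor 17, against 15 and 6.59 in WT-Tag tumors 9 and 28. At the other end, K27M tumor 23 was among the highest 5 for 8 members and WT-Tag tumors 7 and 8 for 6 each. Relative depth was 1.28 in K27M tumor 17, and 1.08 and 0.939 in WT-Tag tumors 9 and 28, within the range of the other tumors.

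**Figure D3:**
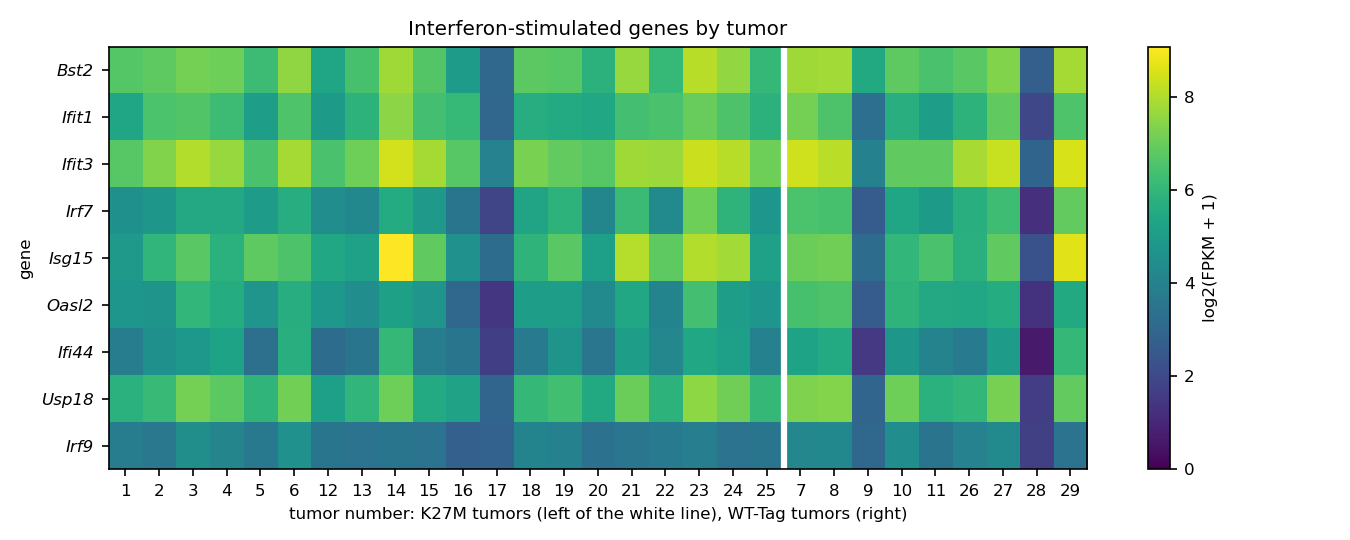
Level of each gene as log2(FPKM + 1) (color) in the 20 K27M tumors (left of the white line) and 9 WT-Tag tumors (right), by tumor number. The dark columns are K27M tumor 17 and WT-Tag tumors 9 and 28, where Bst2 stood at 7.18, against 45.0 and 5.77 FPKM.

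The members varied together across tumors. The 36 pairs of members had Pearson correlations of log2(FPKM + 1) between 0.555 and 0.973, with a median of 0.88, over the 29 tumors. Set against the mean of the other 8 members, Usp18 was the closest (0.976) and Irf9 the least close (0.768), and within K27M tumors Irf9 stood at 0.617 and in WT-Tag tumors at 0.871. These correlations describe libraries that share depth and tissue makeup as well as expression.

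Among the 8 other members, Irf7 was the closest to Bst2 by Pearson's r over all 29 tumors, with r of 0.942 and Spearman's rho of 0.922. The permutation p was 1e-05 for r and rho, the smallest that the resamples can give, and 2.25e-05 after Benjamini-Hochberg adjustment over 18 relations. It stood at r of 0.935 within K27M tumors and 0.963 within WT-Tag tumors. Over all 29 tumors its r was 0.89 without the 2 tumors farthest from the median of Bst2. By rho over 29 tumors Ifi44 was slightly closer to Bst2 (0.926), and within K27M tumors Usp18 was closer by r (0.961). Irf9 was the least close, with r of 0.765 and rho of 0.578 (adjusted permutation p of 6e-05 and 0.0022), and r fell to 0.561 without the 2 farthest tumors. In the WT-Tag tumors its relation to Bst2 rested on the 2 farthest from the WT-Tag median of Bst2. There r was 0.885 over all 9 (adjusted exact permutation p of 0.018) and 0.11 without those 2.

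Ranked over 15351 other genes by likeness to the mean profile of the 9 members, centred within genotype, the 10 closest genes in tumors were Ifi35 (Pearson r of 0.989), Psmb8 (0.976), Tgtp1 and H2-Q4 (0.974 each), Tgtp2 (0.972), Psmb9, Xaf1 and Gbp11 (0.971 each), and Parp10 and Igtp (0.97 each). Psmb8 and Psmb9 encode subunits of the immunoproteasome, H2-Q4 is an MHC class I gene, and Tgtp1, Tgtp2 and Igtp encode GTPases induced by interferon. Tgtp1 and Tgtp2 are near-identical copies whose reads could be split between them, so their separate values are uncertain. The likeness is a description over 29 tumors and carries no test.

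Interferon genes themselves were barely detected. All 18 interferon genes found in the table were below the filter of 1 FPKM, and the highest value in any tumor was 0.55 FPKM, against 0.154 FPKM in any culture. Receptor genes were detected in all groups. Ifnar1, a chain of the type I receptor, averaged 10.4 ± 2.56 FPKM in the K27M tumors and 11.1 ± 2.51 FPKM in the WT-Tag tumors (SD, n = 20 and 9). Of the 108 tested genes on 8 other interferon pathway lists (receptors, signaling factors, nucleic acid sensors, other effectors, GBP and IRG GTPases, chemokines and MHC class I presentation, with ligands below the filter), 0 passed between the tumor genotypes, 54 were positive and 54 negative.

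Markers of blood-derived and brain-resident immune cells were measured beside the members, and their part in the members' spread was not tested. The summed FPKM of 16 microglia and macrophage genes ran from 343 to 1210 in K27M tumors (median 707) and from 411 to 1330 in WT-Tag tumors (median 806). In bulk tissue, fewer cells of a type and less RNA per cell cannot be told apart. The list correlated with Bst2 with r of 0.613 and rho of 0.558 over 29 tumors (adjusted permutation p of 0.000504 and 0.00331), with r of 0.661 within the K27M tumors and 0.561 within the WT-Tag tumors, where the adjusted exact permutation p was 0.179. Without the 2 tumors farthest from the median of Bst2, r was 0.52 over all tumors. None of the 16 genes passed between the tumor genotypes, and 14 of 16 had a negative difference, with a median of −0.14.

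A list of 7 monocyte and plasmacytoid dendritic cell genes followed Bst2 more closely, with r of 0.771 and rho of 0.77 (adjusted permutation p of 2.25e-05 for both). It stood at r of 0.8 within the K27M tumors and 0.78 within the WT-Tag tumors, and at 0.723 without the 2 farthest tumors. Its summed level was low, from 3.22 to 59.5 FPKM in K27M tumors (median 9.56) and from 2.48 to 29.5 in WT-Tag tumors (median 9.05), and the lowest sums of each genotype were those of K27M tumor 17 and WT-Tag tumor 28. The 10 lymphocyte genes summed to 1.42 FPKM or less in every tumor, and their relation to Bst2 did not pass (r of 0.202, adjusted permutation p of 0.352). Endothelial genes gave r of 0.461 and rho of 0.338, with adjusted permutation p of 0.0192 and 0.11. For neurons, mature oligodendrocytes, astrocytes, neural stem cells, oligodendrocyte precursors and proliferation, r over 29 tumors did not pass (adjusted permutation p of 0.0585 to 0.597). Within K27M tumors neuronal and oligodendrocyte genes ran against Bst2 by rank, with rho of −0.546 and −0.48 (adjusted permutation p of 0.0255 and 0.047).

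**Figure D4:**
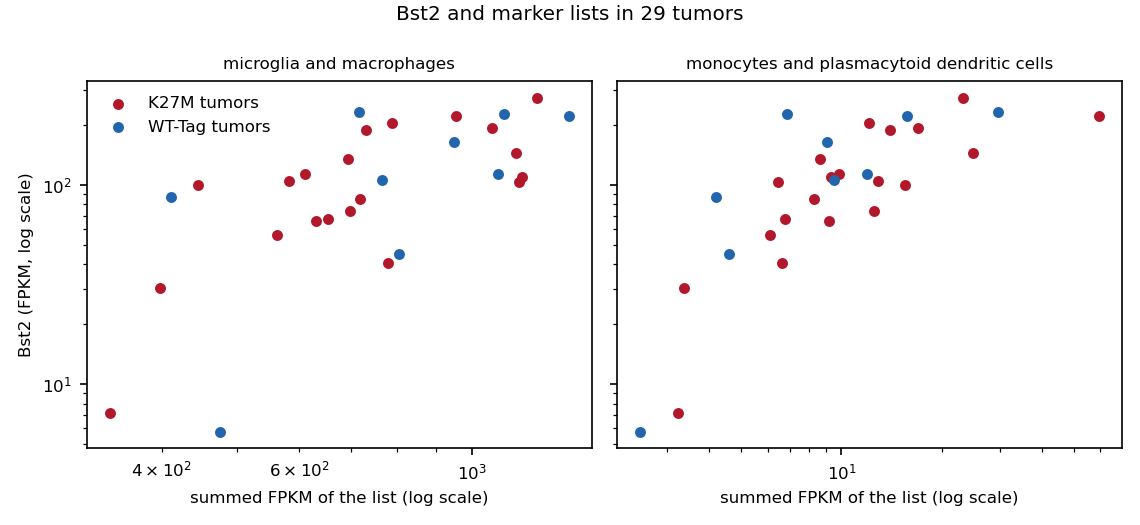
Bst2 (vertical axis, FPKM, log scale) against the summed FPKM of 16 microglia and macrophage genes (left) and 7 monocyte and plasmacytoid dendritic cell genes (right; log scales), with 1 dot per tumor, K27M in red and WT-Tag in blue. The tumors with the least Bst2, at 7.18 (K27M) and 5.77 FPKM (WT-Tag), lie near the low end of both lists. WT-Tag tumor 9, among the lowest 5 for all 9 members, summed to 806 FPKM on the left, the WT-Tag median, and to 4.58 on the right. WT-Tag tumor 11 had the lowest WT-Tag sum on the left, 411 FPKM, and ranked 11th from the lowest of 29 for Bst2.

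In the cultures the members split. Bst2 was the highest of the 9 per length in all 4 culture groups, Irf9 came second, and the other 7 were below 1 FPKM in all 12 cultures. In hindbrain cultures, Bst2 stood at 20.6, 13.9 and 18.4 FPKM in K27M experiments 1, 2 and 3, against 9.84, 3.56 and 3.19 FPKM in WT-Tag experiments 1, 2 and 3. All 3 K27M hindbrain cultures lay above all 3 WT-Tag ones, as did 16.9% of all genes tested, and WT-Tag experiment 1 stood apart from the other two WT-Tag cultures.

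The K27M hindbrain cultures averaged 17.6 ± 3.38 FPKM of Bst2 and the WT-Tag hindbrain cultures 5.53 ± 3.74 FPKM (SD, n = 3 each). Bst2 rose by 1.64 ± 0.30 (SE) in log2(FPKM + 1), with a limma adjusted p of 0.00737 and a 95% interval from 0.98 to 2.30. It was the 87th largest difference of 13190 genes, and 13.5% of them passed in this comparison (8.42% as higher in K27M), so calls were common in it. With the replicate block on experiment the adjusted p was 0.00518. The call was lost when the hindbrain cultures were fitted alone (adjusted p of 0.0541 for the same difference) and without experiment 3, the one with mixed sexes (1.35, adjusted p of 0.149), and it was kept when any 1 hindbrain culture was left out (1.39 to 2.07).

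In forebrain cultures Bst2 stood at 5.23, 4.70 and 4.09 FPKM in K27M experiments 1, 2 and 3, against 4.25, 4.94 and 3.36 FPKM in WT-Tag experiments 1, 2 and 3. The groups overlapped, and the difference of 0.14 ± 0.30 did not pass (limma adjusted p of 0.882, 95% interval from −0.52 to 0.80), where 0.356% of genes did. The hindbrain effect of K27M minus its forebrain effect was 1.5 ± 0.42, with an unadjusted p of 0.0045 and a limma adjusted p of 0.443, so a difference between regions in the effect of K27M on Bst2 did not pass across all genes, where 0.0379% passed. Without WT-Tag hindbrain experiment 1, the culture with 9.84 FPKM, it was 1.94 with an adjusted p of 0.00339, in a fit where 295 genes passed for this difference, against 5 with all cultures.

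**Figure D5:**
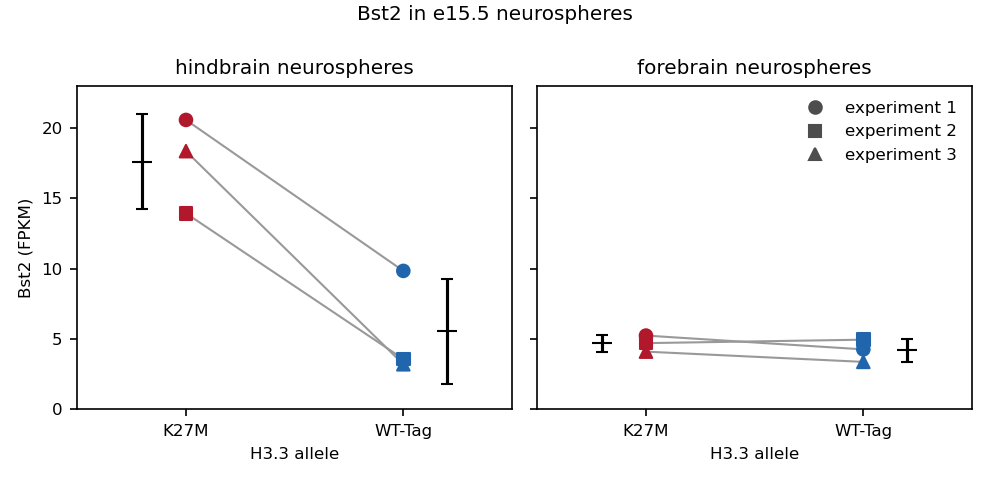
Bst2 in FPKM in hindbrain (left) and forebrain (right) neurospheres, K27M (red) beside WT-Tag (blue), with lines joining cultures of the same experiment and black bars for the mean ± SD (n = 3). The K27M hindbrain mean of 17.6 FPKM stands above the WT-Tag hindbrain mean of 5.53, and the K27M and WT-Tag forebrain means are 4.67 and 4.18.

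Within K27M, Bst2 rose in hindbrain over forebrain cultures by 1.70 ± 0.30 (limma adjusted p of 0.00551, 95% interval from 1.04 to 2.36), where 7.92% of genes passed. Within WT-Tag it averaged 5.53 FPKM in hindbrain and 4.18 FPKM in forebrain cultures, a difference of 0.20 ± 0.30 that did not pass (adjusted p of 0.888, where 1.82% of genes did). Without experiment 3 the K27M value was 1.59 and lost its call (adjusted p of 0.0981). These comparisons share their libraries with those of K27M against WT-Tag above.

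Irf9, the other member above the filter in cultures, stood at 1.41, 1.16 and 2.06 FPKM in K27M hindbrain cultures, against 1.39, 1.15 and 1.56 FPKM in WT-Tag hindbrain cultures. The groups overlapped, and its difference of 0.09 ± 0.13 did not pass (limma adjusted p of 0.671, 95% interval from −0.20 to 0.39). In forebrain cultures it stood at 1.17, 1.19 and 1.14 FPKM with K27M, against 1.39, 1.39 and 1.52 FPKM with WT-Tag. Although the groups did not overlap there, which held in this direction for 9.84% of genes, the difference of −0.17 ± 0.13 did not pass (adjusted p of 0.631).

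The 7 members below the filter were examined without it. Irf7 stood at 0.267, 0.304 and 0.613 FPKM in K27M hindbrain cultures, against 0.243, 0.094 and 0.218 FPKM in WT-Tag hindbrain cultures, groups that did not overlap (16.9% of all genes tested did not in this direction), and its difference of 0.23 gave a limma adjusted p of 0.227. Isg15 stood at 0.232, 0.494 and 0.569 FPKM in K27M hindbrain cultures, against 0.194, 0.171 and 0.241 FPKM in WT-Tag hindbrain cultures, groups that overlapped, with a difference of 0.25 and an adjusted p of 0.162. Ifit1, Ifit3, Oasl2, Ifi44 and Usp18 had hindbrain differences between −0.14 and 0.05. Values this low rest on few reads and their changes are understated on the log2(FPKM + 1) scale.

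Cell markers were measured beside the hindbrain comparison, and their part in the Bst2 result was not tested. The microglial genes Csf1r, Cx3cr1, Aif1 and Ptprc were at 0.015 FPKM or less in K27M hindbrain cultures, Aif1 being at 0 in all 3, and at 0.074 FPKM or less in WT-Tag hindbrain cultures. Other genes of the list were higher. Cd68 stood at 1.15 to 2.34 FPKM in K27M and 0.949 to 1.5 in WT-Tag hindbrain cultures, and P2ry12 at 0.042 to 0.325 and 0.136 to 0.262. In both groups 2 of the 16 genes had a median of at least 1 FPKM. The 16 genes of that list summed to 13.8 to 21.3 FPKM in K27M and 15.8 to 16.7 in WT-Tag hindbrain cultures. The 7 monocyte and plasmacytoid dendritic cell genes summed to 1.07, 1.21 and 2.19 FPKM in K27M, against 0.872, 0.807 and 1.42 in WT-Tag, and the 10 endothelial genes to 0.933 to 1.29 in K27M, against 0.652 to 0.834 in WT-Tag. Mature oligodendrocyte genes summed to 18.8 to 27.9 FPKM in K27M, against 31.2 to 99.1 in WT-Tag, and 2 of the 5 tested were lower, with a median difference of −1.97. Of 7 oligodendrocyte precursor genes 2 were lower, and of 9 neural stem and progenitor genes 2 were higher and 2 lower. Of 8 astrocyte genes 6 were lower in K27M hindbrain cultures, with summed levels of 272 to 327 FPKM in K27M, against 522 to 662 in WT-Tag. Beside these counts, 8.42% of all genes tested were called higher and 5.13% lower. Proliferation genes summed to 504 to 657 FPKM in K27M hindbrain cultures, against 644, 370 and 332 in WT-Tag experiments 1, 2 and 3. None of the 10 passed, but all 10 differences were positive, with a median of 0.57, against 0.09 over all genes tested.

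Other interferon pathway genes did not follow Bst2 in the hindbrain cultures. Of 59 tested on the 8 lists, 3 were higher in K27M and 6 lower, where 8.42% of all genes were called higher and 5.13% lower, with a median difference of 0.03, against 0.09 over all genes. Both chains of the interferon gamma receptor rose, Ifngr1 to 12.4 ± 0.485 FPKM in K27M against 8.92 ± 1.51 in WT-Tag, and Ifngr2 to 9.0 ± 0.874 in K27M against 6.41 ± 0.824 in WT-Tag (limma adjusted p of 0.0203 and 0.0272), calls that were lost in 5 and 7 of 13 alternatives. Ifitm2, a membrane protein that blocks virus entry, rose to 78.8 ± 5.67 FPKM in K27M against 56.9 ± 10.5 in WT-Tag (0.48, adjusted p of 0.0463), a call lost in 9 of 13 alternatives.

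The genes that fell were effectors and sensors. Irgm1, a GTPase of the response to interferon gamma, fell to 1.17 ± 0.0777 FPKM in K27M against 3.36 ± 0.906 in WT-Tag hindbrain cultures (−0.99, limma adjusted p of 0.00408). Psmb10, an immunoproteasome subunit, fell to 8.10 ± 0.767 FPKM in K27M against 14 ± 0.221 in WT-Tag (−0.73, 0.00247). Eif2ak2, which encodes the kinase PKR, fell to 5.07 ± 0.194 FPKM in K27M against 7.76 ± 0.541 in WT-Tag (−0.53, 0.00479). Gbp9, a guanylate-binding protein, fell by 0.67 (0.00995) and Tlr3, an endosomal sensor of double-stranded RNA, fell by 0.64 (0.01). Of 13 alternatives, the call of Psmb10 was lost in 0, that of Irgm1 in 1 and those of Eif2ak2 and Tlr3 in 2 each. The call of Gbp9 was lost in 2 of 9. When the hindbrain cultures were fitted alone, 6 of the 8 named genes that rose or fell lost their calls. Without experiment 3, 6 of the 7 that could be tested did. In forebrain cultures 0 of these 59 genes passed, 18 being positive and 41 negative.

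Between hindbrain and forebrain, 6 of the 59 pathway genes were higher and 4 lower in K27M cultures, and 2 higher and 2 lower in WT-Tag cultures, where 7.92% and 1.82% of all genes passed. In K27M cultures Ifitm2 rose in hindbrain over forebrain by 1.59, Tmem173, the DNA-sensing adaptor STING, by 1.00 and Ifi27l1, an interferon-induced mitochondrial protein, by 0.93 (limma adjusted p of 6.02e-05, 0.00989 and 0.0033). Gbp9 and Stat2 rose by 0.56 and 0.55. Gbp3, Gbp7 and Ifit2 fell by 1.29, 0.98 and 0.97. The call of Stat2 was lost in 8 of 13 alternatives and that of Gbp9 in 5 of 11. In WT-Tag cultures Gbp9 rose by 0.84 and Ifitm2 by 0.78, and Gbp3 and Gbp7 fell by 1.57 and 1.16. The Gbp genes are a multigene family whose reads could be split between copies.

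The genes around Bst2 were examined to see whether the hindbrain difference was seen at Bst2 alone. By RefSeq order, 10 neighbours were taken, 5 on each side, of which 6 were tested. Plvap, an endothelial diaphragm protein gene that lies 3 places from Bst2, averaged 9.46 ± 3.10 FPKM in K27M and 3.99 ± 2.86 in WT-Tag hindbrain cultures (1.17 ± 0.35, limma adjusted p of 0.047). Ano8, a member of the anoctamin family, averaged 16.2 ± 1.92 FPKM in K27M and 8.80 ± 3.98 in WT-Tag (0.88 ± 0.22, adjusted p of 0.0246). The adjacent Mvb12a, listed under its older symbol Fam125a, averaged 23.2 ± 2.32 FPKM in K27M and 16.2 ± 2.45 in WT-Tag and did not pass (0.50, 0.0785). Pgls (0.40, 0.0948), Gtpbp3 (0.28, 0.264) and Slc27a1 (0.16, 0.532) did not pass either. All 6 differences were positive, where 62.3% of all genes tested were, and 2 of 6 called compares with 13.5% of all genes. In forebrain cultures none of the 6 passed.

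Genes with profiles most like the 9 members in the cultures, centred within the 4 groups, were none of the pathway genes. Zfand6 was the closest (Pearson r of 0.967 over 12 cultures, of 13188 genes), followed by Itgb5 and Vit (0.943 each), Gadd45g (0.935) and Pipox (0.926), and then Thap3, Pnck, Pi4k2b, Otx2 and Snrnp48 (0.919 to 0.911). In the cultures the mean profile is mainly that of Bst2, since 7 members were near 0 there.

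Tumors were set against hindbrain cultures of the same histone allele, which differ also in the PDGFRα and Trp53 alleles, the Cre driver, age, tissue and growth conditions, so that no one of these can be told apart. All 29 tumors lay above all 12 cultures for 8 of the 9 members, and 27 of 29 for Bst2. The exceptions for Bst2 were K27M tumor 17 and WT-Tag tumor 28, at 7.18 and 5.77 FPKM, within the culture range of 3.19 to 20.6 FPKM. Groups did not overlap in this direction for 20.6% of all genes between K27M tumors and K27M hindbrain cultures and for 20.3% between the WT-Tag groups. No share was computed for all tumors against all cultures. Most members passed the filter through the tumors alone, so the count of members without overlap supports nothing. Ifit3 ran from 6.59 to 375 FPKM in tumors, against 0.133 to 0.641 in cultures, the widest gap of medians (163 against 0.281 FPKM). Irf9 ran from 2.31 to 23.3 FPKM in tumors, against 1.14 to 2.06 in cultures.

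In the fit over all libraries Bst2 rose in K27M tumors over K27M hindbrain cultures by 2.34 ± 0.70 (limma adjusted p of 0.00424) and in WT-Tag tumors over WT-Tag hindbrain cultures by 4.02 ± 0.75 (4.44e-05). The difference between these values restates how the K27M effect on Bst2 differed between hindbrain cultures and tumors, which was 1.68 ± 1.02 in a test added after seeing the data, with an unadjusted p of 0.109, an adjusted p of 0.687 and a 95% interval from −0.39 to 3.74 (0.583% of genes passed). Ifit3 rose by 6.99 in K27M and 6.5 in WT-Tag tumors, and Irf9 by 2.36 and 2.43, the smallest value for WT-Tag. All 9 members passed as higher in both genotypes, where 33.1% of 16803 genes did for K27M and 28.9% for WT-Tag, but 7 members entered the fit through the tumors alone, so that the count supports nothing. The median of all genes moved by 0.10 in K27M and 0.16 in WT-Tag in this comparison, small beside the members' values.

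Pathway genes outside the 9 rose over K27M hindbrain cultures by as much, with Igtp at 6.96, Gbp2 at 6.75, Tgtp2 at 6.64, Iigp1 at 6.63 and Tgtp1 at 6.28, all GTPases. Of 109 tested, 93 were higher in K27M tumors and 4 lower, and 93 higher and 0 lower in WT-Tag tumors, where 26.5% of all genes were lower for K27M and 17.4% for WT-Tag. Because 59 pathway genes passed the filter in the cultures, many of the 109 entered the fit through the tumors, where they are high, so that these counts support nothing either. The 4 that fell in K27M tumors were Ifitm2 (−1.60), the sensor-linked transcription factor Irf3 (−1.15), the mitochondrial adaptor Mavs (−0.70) and Ifnar1 (−0.39, limma adjusted p of 0.0475, a call lost in 6 of 9 alternatives). The microglia and macrophage sum was 343 to 1210 FPKM in K27M tumors, against 13.8 to 21.3 FPKM in K27M hindbrain cultures, and 411 to 1330 in WT-Tag tumors, against 15.8 to 16.7 in WT-Tag hindbrain cultures. How far immune cells in the tumors carry the members' levels was not tested.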

How the data were processed

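RNA was extracted with Trizol and sequenced from TruSeq Stranded Total RNA libraries, as the labels' protocols state. The submitters' processing notes name CASAVA, TopHat2, STAR and the build mm9, without versions. No label names the counting tool, annotation or strand setting, so overlapping genes and near-identical copies are uncertain. The authors deposited 1 table of FPKM values, in which 974 of 34591 entries were at 0 throughout. No libraries were identical.

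FPKM values are not counts, so limma 3.58.1 (R 4.3.3) with a mean-variance trend was run on log2(FPKM + 1), 2-sided, with Benjamini-Hochberg adjustment over all genes tested and a threshold of 0.05. Differences on this scale understate changes of low genes. Tumors were fitted alone (at least 1 FPKM in 9 libraries, 15360 genes), the 12 cultures as 4 groups (1 FPKM in 3, 13190 genes) and all 41 libraries as 6 groups (1 FPKM in 3, 16803 genes). The fits were tested on simulated data. Correlations used 100000 permutations, with exact enumeration for 9 tumors. With 3 cultures against 3, a permutation test of 1 value cannot go below 0.1. Per the labels the tumors are separate tumors, and the 12 cultures come from 3 experiments, each with 1 culture of every group. The p-values measure the spread between these samples.

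Experiment ids, which served as replicate numbers, pair the cultures by label. Deviations of same-numbered K27M and WT-Tag cultures correlated at 0.412, 0.152 and 0.438 in hindbrain and 0.443, −0.234 and 0.352 in forebrain. Those of same-numbered hindbrain and forebrain cultures correlated at 0.668, 0.712 and 0.165 in WT-Tag and 0.216, −0.0471 and −0.0405 in K27M. The fit without the block is the one reported. The named pathway genes were, per comparison, at most the 5 with the largest differences in each direction that passed the test. The members and lists were chosen with earlier results of these data known. Alternatives were another pseudocount (0.1), no filter, median scaling, no trend, the replicate block, sex labels, a microglia covariate, the compared groups alone and leaving out libraries. Promoters came from RefSeq tables of GRCm38.p6, which held 8 of the 9 members. Some results are not reported here.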

Additional observations from a re-analysis of the deposited data

Results flagged for a closer look

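Bst2 in WT-Tag tumor 28, at 5.77 FPKM, stood far below the other 8 WT-Tag tumors on the log2 scale, a gap of more than the critical share of the group's range for 9 samples. Each of the 9 genes was checked this way in the WT-Tag tumors, and chance flags about 1 in 20 groups. All 9 members were among the lowest 3 of 29 in this tumor. Its microglia and macrophage genes summed to 475 FPKM, and its relative depth was 0.939. Without it the K27M minus WT-Tag difference of Bst2 was −0.52 and did not pass.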

How the results depend on the processing

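No member passed between the tumor genotypes under any alternative run, but the signs moved. With the microglia and macrophage covariate Bst2 was 0.19, Irf7 0.0662 and Oasl2 0.0194. In tumors labelled female Ifi44 was −0.18. Without WT-Tag tumors 9 and 28 and K27M tumor 17, Ifit1 was −0.16, Ifit3 −0.46, Isg15 −0.44, Ifi44 −0.52, Usp18 −0.53 and Irf9 −0.31. Leaving out 1 tumor at a time gave −0.52 to 0.15 for Bst2, −0.15 to 0.56 for Ifit3, −0.64 to 0.0675 for Irf7, −0.14 to 0.66 for Isg15, −0.22 to 0.45 for Ifi44, −0.22 to 0.50 for Usp18 and −0.22 to 0.12 for Irf9. The count of all genes was 13, against 26 without the filter, 8 without WT-Tag tumors 8 and 9 and 0 in tumors labelled female.

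In hindbrain cultures the count of members called was 1, and 0 when the compared groups were fitted alone and 0 without experiment 3, where fewer libraries enter. The count of all genes was 1787, against 1045 without the filter, 286 with the groups alone, 97 without experiment 3 and 554 to 4212 when 1 culture was left out. Irf9 there ran from −0.0509 to 0.203 when 1 culture was left out. Of the members in K27M cultures between regions, 1 was called, and 0 without experiment 3 (all genes 1044, against 315). In WT-Tag cultures between regions leaving out 1 culture gave −0.103 to 0.025 for Irf9, and Bst2 was −0.23 without hindbrain experiment 1 (all genes 240, against 90 with the groups alone and 68 without experiment 3). For the difference of the K27M effects, leaving out 1 culture gave 0 to 1 members called. In forebrain cultures the count of all genes was 47, against 83 with median scaling, 80 with the groups alone and 0 without experiment 3. The replicate block changed no call of a member: Bst2 had an adjusted p of 0.00518 in hindbrain cultures and 0.257 for the difference of effects, where the count of all genes was 0 with the block and 5 without.

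The 9 calls of tumors over cultures were kept under every alternative run. Fitting the compared groups alone was not run for the difference of effects, which needs all 4 groups. Members below 1 FPKM in cultures, and depth known only in relative terms, limit what can be seen there.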
